A study of Mus musculus with 8 samples.

Results

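Aminoacyl-tRNA synthetase genes, the genes of the enzymes that join each amino acid to its tRNA, were examined in lactating mammary glands of mice with Th-POK (wild type, WT) and without it (knockout, KO). Members were chosen by symbol, as every gene on the array whose symbol follows the naming of this family (Aars, Cars, Dars and so on, their mitochondrial forms ending in 2, and Eprs, Farsa, Farsb and Tarsl2). This gave 38 of the 18749 genes on the array, 21 in the cytosolic class and 17 in the mitochondrial class, and all 38 were among the 14137 genes tested. Gars and Kars, which each encode both a cytosolic and a mitochondrial enzyme, were counted with the cytosolic class because their symbols do not end in 2. Tarsl2, a threonyl-tRNA synthetase-like gene, was counted there too because its product works outside the mitochondrion.

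A synthetase activates its amino acid with ATP and transfers it to the matching tRNA, and the charged tRNA then goes to the ribosome. In mammals the cytosol and the mitochondrion use separate synthetases for most amino acids, all of them encoded in the nucleus and translated in the cytosol. Several cytosolic synthetases are held together with scaffold proteins in the multi-synthetase complex, and many cytosolic synthetase genes are known targets of ATF4, the transcription factor of the amino acid and stress response. Alveolar cells of the lactating gland make and secrete large amounts of milk protein and so use charged tRNA at a high rate.

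RNA came from No. 4 glands of 4 WT and 4 KO dams of the C57/Bl6 strain at lactation day 1, and each dam was hybridized to a 1-colour Agilent mouse array of its own. The KO dams lack Th-POK, a zinc finger transcription factor encoded by Zbtb7b and best known from the choice of the CD4 lineage by T cells. The females were age matched, but their age is not given in the sources used here, and no Cre or promoter is named for the deletion. Signals are log2 values of the background-subtracted probe intensity after quantile normalization over the 8 arrays, each gene was read from its brightest probe, and a gene is called where the adjusted p from limma is under 0.05.

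Zbtb7b signals lay between 9.90 and 10.42 on the WT arrays and between 1.55 and 1.65, not well above background, on the KO arrays. The KO level was thus lower by at least 81.5-fold (limma adjusted p = 5.71e-09), as the labels say. Each genotype was hybridized on a slide of its own, so genotype and slide cannot be told apart in any value below. In KO glands 3 of the 8 luminal and alveolar markers were higher (Krt18, Epcam and Cdh1) and 0 lower. Among all genes tested 7.53% were higher and 8.96% lower. Fold changes of Lalba (-0.45), Elf5 (-0.35) and Prlr (-0.20) were below 0 and those of Krt8 (0.46) and Csn2 (0.01) above, with none of them called. The log2 of the summed signal of the 8 markers, of which Csn2 was the brightest, was 18.85 to 18.94 on the WT arrays and 18.93 to 19.03 on the KO arrays. Summed neutrophil markers were at 16.04 to 16.62 on the WT and 17.37 to 18.04 on the KO arrays (3 of 5 higher). That sum was mostly the signal of Ltf, the brightest of the 5, which had a fold change of 1.31. Ngp and Camp were also called higher, and S100a8 (limma adjusted p = 0.357) and S100a9 (0.0566) were not called. Whether the sum follows neutrophils was not tested. Summed adipocyte markers were at 18.09 to 18.57 on the WT and 18.57 to 19.07 on the KO arrays (2 of 6 higher). Summed fibroblast markers were at 16.93 to 17.25 and 17.32 to 17.83 (1 of 4 higher). T cell markers were at 8.83 to 10.21 and 8.86 to 9.28 (2 of 5 lower), and 1 of 5 B cell markers was higher. Basal, macrophage and endothelial lists had 0 calls. Only markers well above background on all 4 arrays of a genotype were tested. Of these, Ngp and Camp were well above background on 0 WT arrays and Cd79a on 1 KO array. The part of cell makeup in the synthetase values was not tested, and in whole glands fewer cells of a type cannot be told apart from less RNA per cell.

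Of the synthetase genes, 11 cytosolic and 5 mitochondrial ones were lower in the KO glands and 22 were not called. At an adjusted p under 0.05, 16 of the 38 genes were lower and 0 higher (42.1%), against 8.96% lower and 7.53% higher among all genes tested. The mean was below the WT mean for 35 of the 38 genes (52.4% of all genes tested), and in 19 all 4 KO arrays lay below all 4 WT arrays (12.9% of all genes tested). The median log2 fold change of the 38 genes was -0.45 and that of all genes tested -0.02. Fold changes ran from -0.98 for Rars, at 50.9% of its WT signal, to 0.23 for Hars2. All 38 brightest probes were well above background on all 8 arrays, so none of these values is a limit set by dim signal. With 1 array left out, the members called lower numbered 18 without WT array 1 (11.9% of all genes lower), 19 without KO array 4 (8.96%), 15 without WT array 4 (7.19%), 4 without KO array 3 (1.76%), 6 without WT array 2 (2.69%) or KO array 1 (2.71%), and 7 without WT array 3 (3.61%) or KO array 2 (3.5%).

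**Figure D1:**
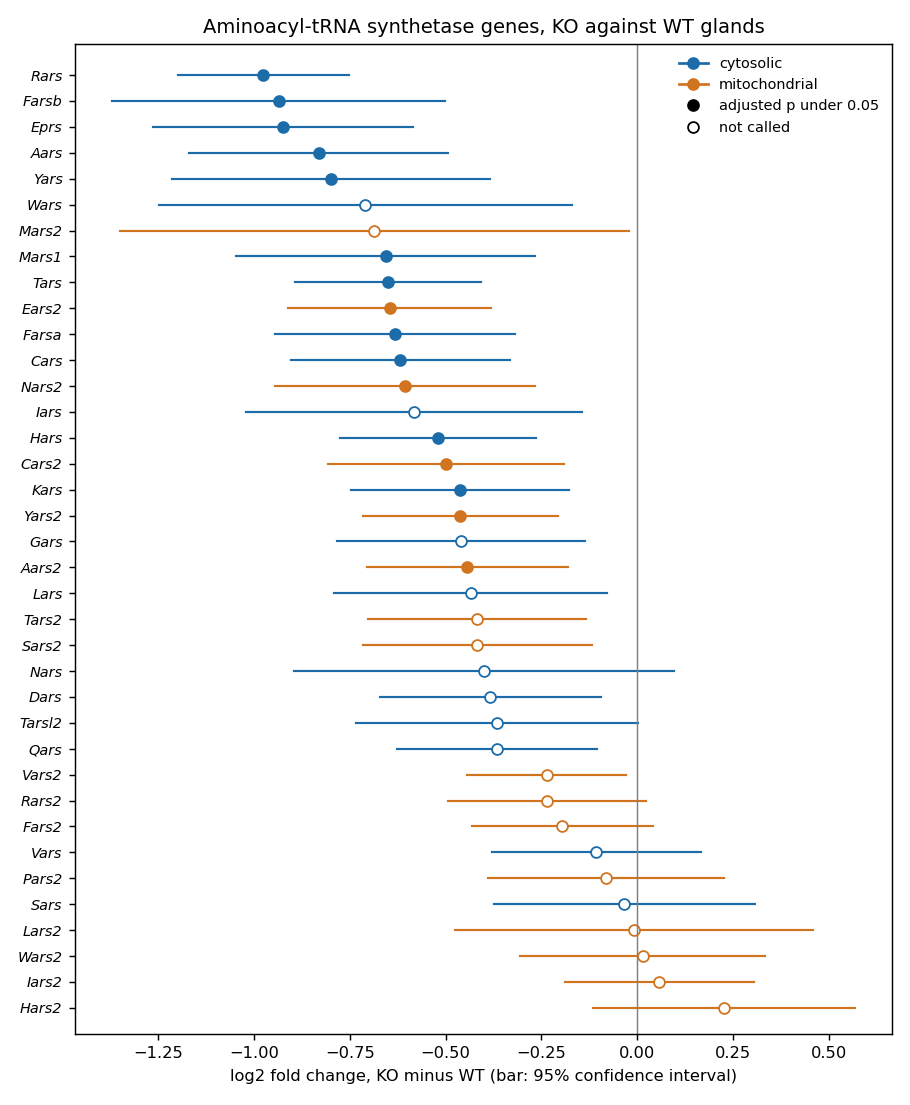
Log2 fold change (KO minus WT) of 37 synthetase genes, each with its 95% confidence interval from limma, 4 WT and 4 KO arrays, cytosolic genes in blue and mitochondrial genes in orange. Filled points mark the 16 genes with an adjusted p under 0.05, all to the left of 0; Hars2, at 0.23, is farthest to the right.

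In the cytosolic class 11 of 21 genes were lower and 0 higher (52.4%, against 8.96% lower of all genes). All 21 means were below 0, against 52.4% of all genes tested, and the median fold change was -0.58. In 13 of the 21 all KO arrays were below all WT arrays, against 12.9% of all genes. The multi-synthetase complex holds 8 of these enzymes, of which 4 were called lower (Rars, Eprs, Mars1 and Kars), with a median of -0.52. Rars, the arginyl-tRNA synthetase, had the largest fold change of the family and the smallest p. Its log2 signals were 8.55, 8.65, 8.68 and 8.44 on the WT arrays and 7.55, 7.64, 7.70 and 7.52 on the KO arrays. The groups stood clear of each other, and Rars fell by 0.98 on the log2 scale (SE 0.10, limma adjusted p = 0.00251). Eprs encodes 1 protein with both glutamyl- and prolyl-tRNA synthetase activity. It was measured at 10.99, 11.59, 11.21 and 11.13 on the WT arrays and at 10.22, 10.35, 10.15 and 10.49 on the KO arrays. No KO array reached a WT array, and Eprs fell by 0.92 (SE 0.15, limma adjusted p = 0.0113) to 52.7%. Mars1, the methionyl-tRNA synthetase, which also charges the initiator tRNA, had signals of 10.68, 11.15, 10.93 and 11.07 in WT and 10.00, 10.32, 10.19 and 10.70 in KO glands. KO array 4 lay within the WT range, and Mars1 fell by 0.66 (SE 0.17, limma adjusted p = 0.0367). Kars, the lysyl-tRNA synthetase of both compartments, stood at 11.18, 11.65, 11.50 and 11.24 in WT and at 10.97, 10.89, 10.87 and 10.99 in KO glands. It fell by 0.46 with no overlap (SE 0.12, limma adjusted p = 0.0397), but missed the threshold in the fit with a replicate block (0.0618).

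The other 4 synthetases of the complex missed the threshold, with fold changes between -0.37 and -0.58. They were Qars for glutamine (-0.37, limma adjusted p = 0.0593, but called lower under either other scaling), Dars for aspartate (-0.38, 0.0676), Iars for isoleucine (-0.58, 0.0682, or 0.0358 and called lower in the fit with a replicate block) and Lars for leucine (-0.43, 0.0851). In 3 of these (Qars, Dars and Iars) the KO arrays all lay below the WT arrays, and for Lars KO array 4, at 12.98, lay within the WT range of 12.92 to 13.36.

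Outside the complex 7 of 13 cytosolic genes were lower (53.8%, against 8.96% of all genes), with a median of -0.62. Farsa and Farsb encode the alpha and beta subunits of the cytosolic phenylalanyl-tRNA synthetase, and both were lower. Farsb gave 8.21, 8.64, 8.12 and 8.22 on the WT and 7.0, 7.57, 7.15 and 7.72 on the KO arrays. It fell by 0.94 (SE 0.19, limma adjusted p = 0.0196), to 52.3% of WT. Farsa gave 11.35, 11.83, 11.66 and 11.30 on the WT and 10.78, 10.89, 10.92 and 11.01 on the KO arrays, and fell by 0.63 (SE 0.14, limma adjusted p = 0.0229). For both subunits every KO array was below every WT array. Aars, the alanyl-tRNA synthetase, read 12.55, 13.04, 12.88 and 12.77 in WT and 11.90, 11.82, 11.91 and 12.29 in KO glands. KO array 4 was nearest to the WT arrays without reaching them, and Aars fell by 0.83 (SE 0.15, limma adjusted p = 0.0145). Yars, for tyrosine, had signals of 11.11, 11.58, 11.37 and 11.07 on the WT and 10.33, 10.35, 10.30 and 10.94 on the KO arrays. Again KO array 4 stood highest of the KO arrays, and Yars fell by 0.80 (SE 0.18, limma adjusted p = 0.0258).

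Tars, the cytosolic threonyl-tRNA synthetase, was measured at 12.78, 13.04, 12.87 and 12.84 in WT and at 12.05, 12.25, 12.29 and 12.34 in KO glands. The genotypes were far apart for their spread, and Tars fell by 0.65 (SE 0.11, limma adjusted p = 0.0117). Cars, for cysteine, had 11.17, 11.11, 11.41 and 11.09 against 10.73, 10.51, 10.36 and 10.70, and fell by 0.62 (SE 0.13, limma adjusted p = 0.0196). Hars, for histidine, had 9.93, 10.35, 10.12 and 10.07 against 9.54, 9.55, 9.60 and 9.70, and fell by 0.52 (SE 0.11, limma adjusted p = 0.0225). In neither of these 2 genes did the genotypes overlap. Not called were Gars for glycine (-0.46, limma adjusted p = 0.0577), Wars for tryptophan (-0.71, 0.0695), Tarsl2 (-0.37, 0.139), Nars for asparagine (-0.40, 0.218), Vars for valine (-0.11, 0.551) and Sars for serine (-0.03, 0.887). Wars had the widest WT spread of the class, from 10.56 to 11.76. The 95% confidence interval of Sars ran from -0.37 to 0.31 and that of Vars from -0.38 to 0.17.

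Of the 11 cytosolic calls, those of Rars, Eprs, Tars and Aars held with each of the 8 arrays left out in turn and in every other alternative run. Cars lost its call without KO array 2 (limma adjusted p = 0.0516) or 3 (0.0578), Farsb without WT array 2 (0.0502) or KO array 1 (0.0504) or 3 (0.0609), and Hars, Farsa, Yars, Mars1 and Kars each without any of WT arrays 2 and 3 and KO arrays 1 to 3 (0.0517 to 0.105), Mars1 also without WT array 4 (0.0709) and Kars also without KO array 4 (0.0541).

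**Figure D2:**
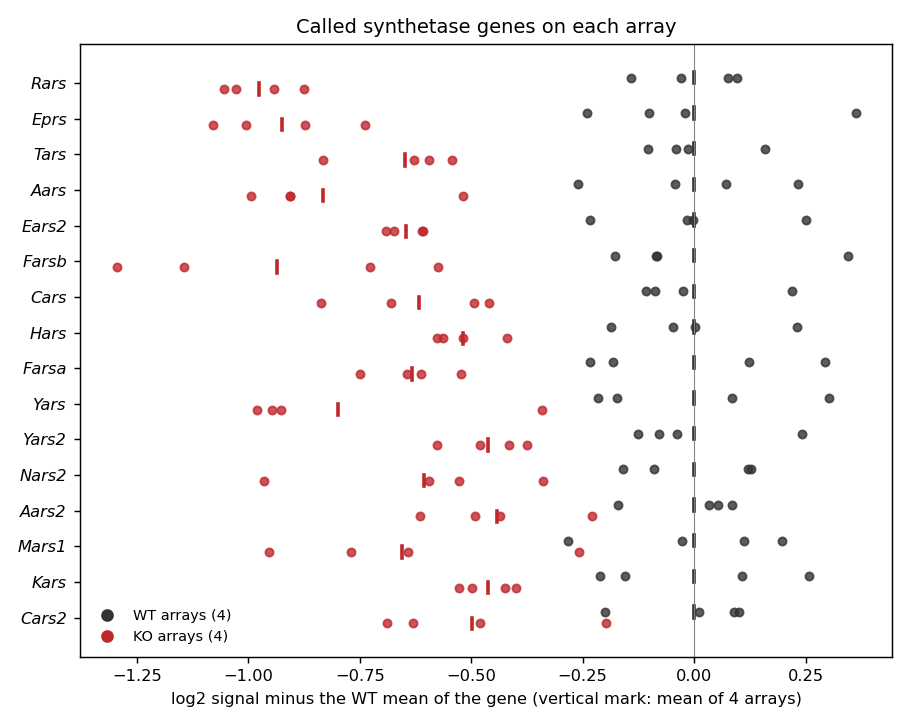
Log2 signal of the 16 called genes on each WT (black) and KO (red) array, relative to the mean of the gene over the 4 WT arrays; vertical marks are the means of 4 arrays. The KO arrays lie below 0 for all 16 genes, and only for Mars1 and Cars2 does a KO array reach the range of the WT arrays.

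Among the 17 mitochondrial synthetase genes 5 were lower and 0 higher (29.4%, against 8.96% lower of all genes), 14 means were below 0 and the median fold change was -0.24. In 6 of the 17 all KO arrays were below all WT arrays, as in 12.9% of all genes. Ears2, the mitochondrial glutamyl-tRNA synthetase, which in mitochondria also charges the tRNA for glutamine before an amidotransferase corrects it, read 8.92, 9.40, 9.15 and 9.13 on the WT and 8.46, 8.54, 8.48 and 8.54 on the KO arrays. The KO arrays lay close together (SD 0.04), and Ears2 fell by 0.65 (SE 0.12, limma adjusted p = 0.0149). Yars2 read 10.27, 10.63, 10.31 and 10.35 against 9.82, 9.91, 9.98 and 10.02. With no overlap, Yars2 fell by 0.46 (SE 0.11, limma adjusted p = 0.0299). Nars2, for asparagine, had 8.64, 8.93, 8.71 and 8.92 against 7.84, 8.46, 8.27 and 8.21. KO array 1 was the lowest, and Nars2 fell by 0.61 (SE 0.15, limma adjusted p = 0.0312). Aars2 had 9.50, 9.71, 9.73 and 9.76 against 9.18, 9.06, 9.24 and 9.44, and fell by 0.44 (SE 0.12, limma adjusted p = 0.0364). Cars2 had 9.43, 9.73, 9.65 and 9.73 against 8.95, 9.16, 9.01 and 9.44, and fell by 0.50 (SE 0.14, limma adjusted p = 0.0400). In Aars2 the genotypes stood apart, and in Cars2 KO array 4 reached the lowest WT array.

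Without KO array 3 the call of Ears2 was lost, at a fold change of -0.64 (limma adjusted p = 0.0505). The other 4 lost theirs, at fold changes between -0.38 and -0.64, in 5 or 6 of the 8 fits that left out an array. Each of those 4 was lost without WT array 2 (0.0666 to 0.104), WT array 3 (0.0599 to 0.0869), KO array 1 (0.0626 to 0.0977) and KO array 3 (0.0746 to 0.108), Yars2, Aars2 and Cars2 also without KO array 2, and Nars2, Aars2 and Cars2 also without WT array 4.

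Several mitochondrial partners of called cytosolic genes were not called. Tars2 had 11.24, 11.65, 11.52 and 11.58 on the WT and 10.91, 11.11, 11.05 and 11.25 on the KO arrays, a fold change of -0.42 (limma adjusted p = 0.0524, or 0.0405 and called lower in the fit with a replicate block) with KO array 4 just at the lowest WT value. Mars2 had 6.75, 7.80, 6.73 and 7.19 against 6.12, 6.10, 6.45 and 7.04, and its fold change of -0.69 had the widest interval of the class (-1.35 to -0.02, limma adjusted p = 0.128). Rars2 had 9.47, 9.52, 9.43 and 9.56 against 9.12, 9.50, 9.32 and 9.11 (-0.23, limma adjusted p = 0.169). Both groups overlapped there, as they did for Fars2, which had 8.65, 8.74, 8.85 and 8.92 against 8.75, 8.58, 8.54 and 8.53 (-0.20, limma adjusted p = 0.207). Also not called were Sars2 (-0.42, limma adjusted p = 0.0597), Vars2 (-0.24, 0.102), Pars2 (-0.08, 0.696), Lars2 (-0.01, 0.981), Wars2 (0.01, 0.952), Iars2 (0.06, 0.727) and Hars2 (0.23, 0.305). Lars2 was read from 1 probe at 17.17 to 17.99, as high as the milk protein gene Csn2 (17.70 to 17.85) and far above the other mitochondrial members. Whether that probe measures Lars2 alone was not tested, and its value is part of the counts, pairs and class means. Intervals were -0.19 to 0.30 for Iars2, -0.12 to 0.57 for Hars2 and -0.48 to 0.46 for Lars2. A change of either sign within these limits is compatible with the data.

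Class means per array set the compartments side by side, with the larger difference between the genotypes in the cytosolic class. With each gene centred on its mean over the 8 arrays, the cytosolic mean was 0.15, 0.45, 0.33 and 0.20 on the WT arrays and -0.41, -0.27, -0.34 and -0.11 on the KO arrays, a difference of -0.56. The mitochondrial mean was 0.01, 0.25, 0.13 and 0.18 on the WT arrays and -0.19, -0.13, -0.17 and -0.08 on the KO arrays, a difference of -0.28. Neither class overlapped between the genotypes. Cytosolic minus mitochondrial, array by array, was 0.14, 0.20, 0.20 and 0.01 in WT and -0.22, -0.14, -0.17 and -0.03 in KO glands. That contrast differed by -0.28 and did not overlap either, although WT array 4 and KO array 4 came close to each other. No p is given for these class means, since they are averages over chosen genes. The contrast stayed between -0.32 and -0.25 in every alternative run, and it was -0.29 with Gars and Kars left out and -0.29 with Tarsl2 moved to the mitochondrial class.

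**Figure D3:**
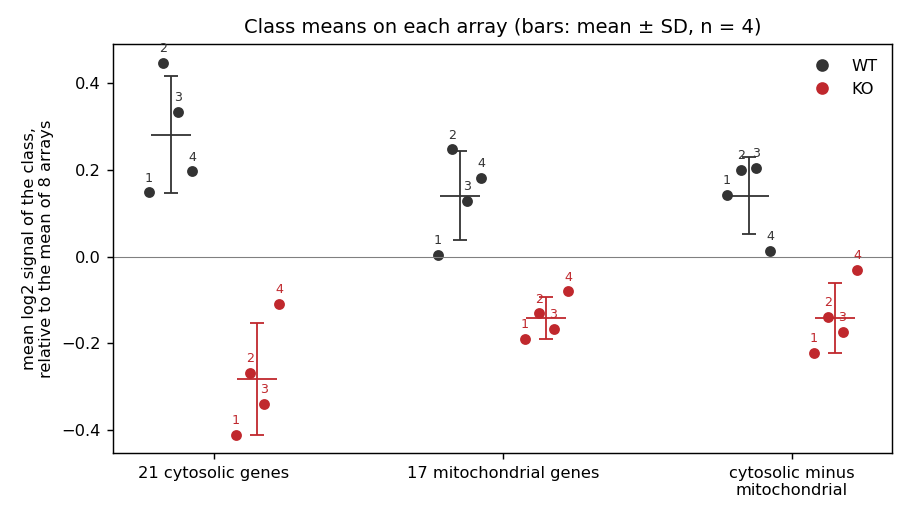
Mean log2 signal of the cytosolic and mitochondrial classes on each array after centring each gene on its mean over 8 arrays, and the difference of the classes; numbers are the replicate numbers, horizontal bars the mean and error bars the SD of 4 arrays. WT and KO arrays do not overlap in any of the 3, and KO array 4 is the highest KO array in each.

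The 2 compartments could be compared for 17 amino acids, in 18 pairs of genes, since Eprs pairs with both Ears2 and Pars2 and Fars2 with both Farsa and Farsb. In 14 pairs the cytosolic fold change was below the mitochondrial one. Both genes were called lower in 4 pairs (Aars and Aars2, Cars and Cars2, Yars and Yars2, Eprs and Ears2), only the cytosolic gene in 7, only the mitochondrial gene in 1 (Nars2) and neither in 6. A call in only 1 gene of a pair does not show that the pair differed, and the differences were not tested. The widest gaps were -0.84 for Eprs against Pars2, -0.75 for Hars against Hars2, and -0.74 for Rars against Rars2 and for Farsb against Fars2. Hars2 stood at 7.50 on KO array 2 and at 6.79 to 7.05 on the other KO arrays. Without KO array 2 its fold change was 0.09, and with normexp background it was 0.08. The order was turned for serine (Sars -0.03, Sars2 -0.42), asparagine (Nars -0.40, Nars2 -0.61), valine (Vars -0.11, Vars2 -0.24) and, by 0.03, methionine.

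**Figure D4:**
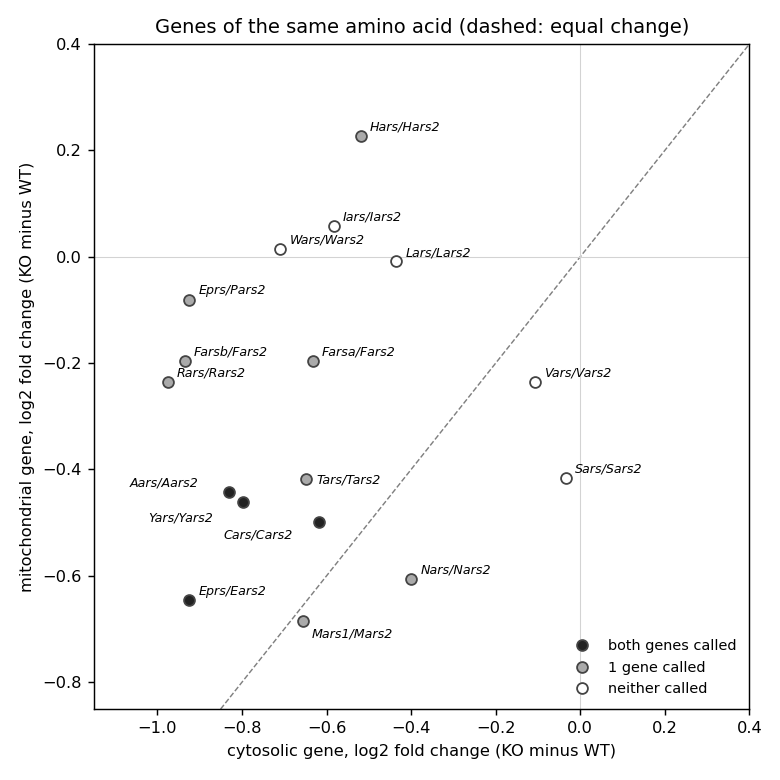
Log2 fold change (KO minus WT) of the cytosolic gene against that of the mitochondrial gene for 17 pairs of the same amino acid, with the line of equal change dashed. In 13 of them the point lies above the line, that is, the cytosolic fold change is the lower of the 2, and the 4 pairs with both genes called are filled in black.

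Of the 18 genes with several probes past the filter, 17 had all probes on the same side of 0, and in 5 (Aars, Cars, Eprs, Farsa and Tars) every probe was called lower. The 4 Eprs probes gave fold changes between -0.67 and -0.94. Over all 63 probes of the family, fitted with every probe on the array, 27 were lower and 1 higher, against 7.17% lower and 7.3% higher of all probes tested. For 3 called genes another probe was not called: the second probe gave -0.08 for Cars2 (limma adjusted p = 0.674), -0.40 for Nars2 (0.148) and -0.64 for Mars1 (0.0566). In contrast, the second probes of Qars (-0.59, limma adjusted p = 0.0204) and Wars (-0.79, 0.0127) were called lower although the brightest were not. Wars2 gave 0.01 on its brightest probe, 0.35 on another and 0.45 on the remaining one, which was higher in KO glands (limma adjusted p = 0.0378). Dars had 1 dim probe at 0.13 (SE 0.48) beside probes at -0.38 and -0.22.

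**Figure D5:**
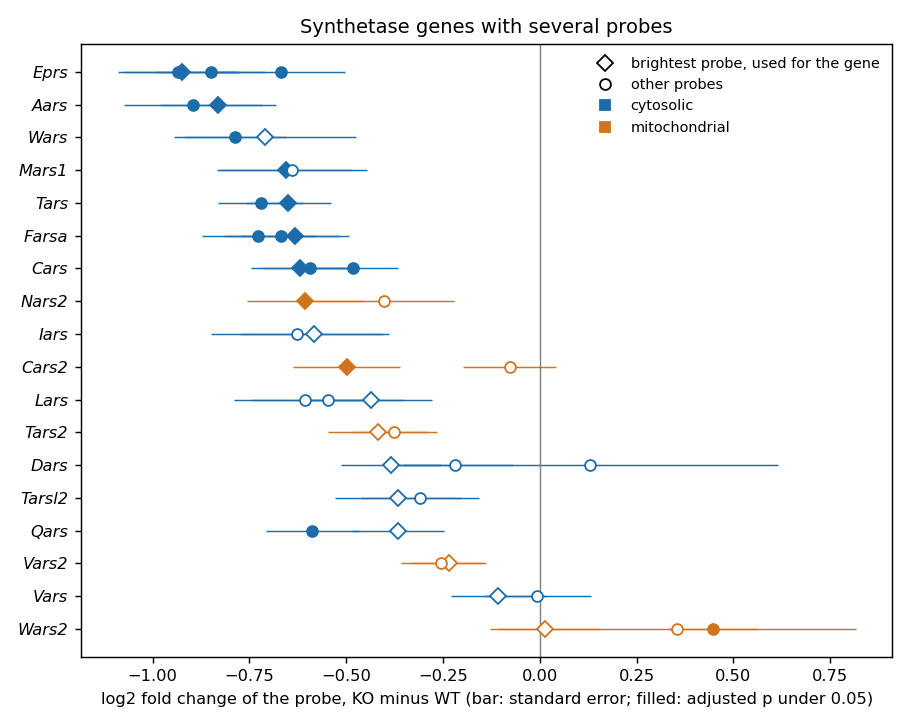
Log2 fold change (KO minus WT) of every probe of the 18 synthetase genes with several probes, bars giving the standard error; diamonds are the brightest probes, which stand for the gene, and filled symbols have an adjusted p under 0.05. The probes of Aars, Cars, Eprs, Farsa and Tars are all filled and left of 0, while those of Cars2 and Wars2 lie apart from each other.

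KO array 4 was the highest KO array for 20 of the 38 synthetase genes and WT array 2 the highest WT array for 19. Across the 7406 genes with a lower mean in KO glands the same arrays were highest in 39.4% and 40.8%. With both of these arrays left out, 9 members were lower, against 3.3% of all genes.

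Known ATF4 targets and the other cytosolic genes were both found among the called genes. Of the 12 cytosolic synthetase genes listed as ATF4 targets 6 were lower (Aars, Cars, Eprs, Mars1, Tars and Yars), with a median of -0.63. Of the other 9 it was 5 (Farsa, Farsb, Hars, Kars and Rars), with a median of -0.46. The share lower among all genes tested was 8.96%. ATF4 binds with a C/EBP partner at a composite element with the letters TGATGNAA, where N is any base. These letters were looked for on both strands of RefSeq promoter windows (GRCm38.p6) from 250 bases before to 50 bases after the start of each gene. A window was given for 28 of the 38 members, and 5 of them (17.9%) held the letters, against 1219 of 27025 genes with a window (4.51%). All 5 were cytosolic (5 of 14 windows, 35.7%) and 0 of 14 mitochondrial windows had them. By call, over both compartments, it was 3 of 13 genes that were lower (23.1%) and 2 of 15 not called (13.3%). Both of these groups mix cytosolic with mitochondrial windows, and a link of the letters with the call was not tested. A match describes the sequence and is not a measured binding site.

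The matches lay upstream of the start in Aars (chr8:111033660-111033807, plus strand), Tars (chr15:11399659-11399743, minus strand) and Gars (chr6:55037901-55038000, plus strand). The stretches around these matches are shown 5′ to 3′ on the strand of the gene, with the match in capitals (TTGCATCA and TTTCATCA are TGATGNAA read on the other strand).
Aars: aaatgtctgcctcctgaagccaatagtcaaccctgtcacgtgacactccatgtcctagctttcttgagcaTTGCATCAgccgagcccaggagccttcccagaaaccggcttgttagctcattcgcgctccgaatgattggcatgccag
Tars: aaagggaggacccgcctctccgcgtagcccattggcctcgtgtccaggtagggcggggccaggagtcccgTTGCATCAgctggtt
Gars: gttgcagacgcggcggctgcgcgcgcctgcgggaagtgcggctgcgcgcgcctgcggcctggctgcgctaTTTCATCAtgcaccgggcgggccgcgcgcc

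Just past the start a match stood in Yars (chr4:129189895-129189924, plus strand), in Iars (chr13:49682126-49682155, plus strand) and a second time in Aars (chr8:111033840-111033869, plus strand). They are given with a few bases on either side.
Yars: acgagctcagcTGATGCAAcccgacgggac
Iars: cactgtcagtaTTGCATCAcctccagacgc
Aars: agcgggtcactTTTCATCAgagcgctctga

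Tars, Aars and Yars, the called genes among these, fell by 0.65, 0.83 and 0.80, and Gars and Iars, not called, had fold changes of -0.46 and -0.58. The listed ATF4 targets Eprs, Mars1 and Sars had a window without the letters. Rars, with the smallest p, had no window in the promoter table used, and neither had the listed targets Cars, Lars, Nars and Wars.

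Of the 31 tested genes that take part in tRNA charging or use its product, 7 were lower and 0 higher (22.6%, against 8.96% lower of all genes), with a median of -0.23. That number was 1 without KO array 3 (1.76% of all genes lower), 3 without WT array 2 (2.69%), WT array 3 (3.61%) or KO array 1 (2.71%), and 4 without KO array 2 (3.5%). The scaffold genes of the multi-synthetase complex gave 2 of 3. Eef1e1, a scaffold protein of the complex, had 11.37, 12.06, 11.63 and 11.71 on the WT and 10.21, 10.92, 10.52 and 11.08 on the KO arrays and fell by 1.01 (SE 0.22, limma adjusted p = 0.0225). Aimp2, the scaffold around which the complex is built, had 8.41, 8.84, 8.48 and 8.54 against 7.82, 7.85, 7.95 and 8.06 and fell by 0.65 (SE 0.12, limma adjusted p = 0.0164). Neither overlapped, and Aimp1, the remaining scaffold, was at -0.09 (limma adjusted p = 0.605). Of tRNA maturation and export 3 of 7 tested genes were lower: Xpot, which exports tRNA from the nucleus, fell by 0.63 (SE 0.11, limma adjusted p = 0.0139), Elac2, which trims the 3′ end of tRNA precursors, by 0.63 (SE 0.12, 0.0152), and Nsun2, a tRNA methyltransferase, by 0.59 (SE 0.16, 0.0397). Among genes of amidation, formylation and editing it was 2 of 10. Prorsd1, of the prolyl-tRNA editing family, fell by 0.57 (SE 0.12, limma adjusted p = 0.0200) and Gatc, a subunit of the mitochondrial amidotransferase that corrects the product of Ears2, by 0.45 (SE 0.11, limma adjusted p = 0.0320).

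Elongation factors, which take charged tRNA to the ribosome, were called in 0 of 5 cytosolic and 0 of 6 mitochondrial genes. Of all genes 8.96% were lower and 7.53% higher, so 0 calls in lists this short do not set them apart. Cytosolic factors had a median of 0.07, between -0.12 for Eef1g and 0.19 for Eef1a1. All 6 mitochondrial factors had means below 0, with a median of -0.31, and Tufm, the mitochondrial elongation factor Tu, stood at -0.35 (limma adjusted p = 0.0625). In 3 of the 6 all KO arrays lay below all WT arrays, against 12.9% of all genes.

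In the ATF4 pathway list 8 of 31 tested genes were lower and 0 higher (25.8%, against 8.96% lower and 7.53% higher of all genes), with a median of -0.33. Without any array other than KO array 4 the number was 2 to 4, the lowest without KO array 1 or KO array 3 (2.71% and 1.76% of all genes lower), and 4 without WT array 1, where 11.9% of all genes were lower. The smallest p was that of Mthfd2, a mitochondrial enzyme of folate metabolism, with 7.92, 7.68, 8.12 and 7.40 on the WT and 6.19, 6.20, 6.41 and 6.74 on the KO arrays. It fell by 1.40 (SE 0.19, limma adjusted p = 0.00699), more than any synthetase gene. Slc7a1, a carrier of basic amino acids, fell by 1.25 (SE 0.22, limma adjusted p = 0.0149), and Slc7a5, a carrier of large neutral amino acids, by 0.85 (SE 0.22, 0.0376). Eif2ak3, the kinase PERK, fell by 0.53 (SE 0.11, limma adjusted p = 0.0196), and Eif2s1, the subunit of the initiation factor that such kinases phosphorylate, by 0.59 (SE 0.14, 0.0307). Vldlr, Eif2ak1 and Slc38a2 were the other 3 called. Atf4 itself was at -0.25 (limma adjusted p = 0.260) and Asns, asparagine synthetase, at -0.62 (0.228). Means were below 0 in 22 of the 31 genes, against 52.4% of all genes tested, so the members did not all move the same way. With each gene centred as for the class means, the list averaged 0.10 to 0.18 in WT glands. Its KO averages, from -0.28 to -0.02, did not overlap with these, and the genotypes differed by -0.30. The highest fold changes were those of Atf3 (0.85, limma adjusted p = 0.149), Trib3 (0.49, 0.174) and Gdf15 (0.31, 0.487), none of them called.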

How the data were processed

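Members and gene lists were chosen with earlier results of these data known. For each array the authors deposited intensities from Agilent Feature Extraction 10.7, with background subtracted within each array. A table of log2 values quantile-normalized in GeneSpring, also deposited by the authors, served as an alternative (r with the log2 intensity of the same array 0.9985 or above; every column has a median of 6.32).

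For the values given, log2 intensities were quantile-normalized in limma 3.58.1 (R 4.3.3). Outlier spots (64 to 100 an array) were dropped, spots of a probe averaged, and 27479 of 41174 probes named through their accession (18749 symbols). An array had 66.8% to 75.3% of its probes well above background, 0 spots were saturated, and the number of arrays limits the precision. Probes well above background on all 4 arrays of a genotype entered, the brightest stood for its gene, and 14137 genes were fitted, with Benjamini-Hochberg adjustment over all of them. The fit was tested on simulated data. Values on every array are given for called members, then for their partners of the same amino acid, up to 20 in order of p; of other lists up to 5 genes with the smallest p are given, and others were named after their values were seen. A further member, included in the counts and class means, is not reported here.

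Replicate numbers 1 to 4 occur in both genotypes. Deviations from the genotype means correlated, for WT and KO arrays with 1 number, at r = 0.22, 0.16, 0.30 and 0.28, against a mean of -0.08 for different numbers. The main fit did not use this pairing and took the 8 arrays as independent. A fit with the replicate number as a block was run as an alternative, and it changed some calls. The labels call the arrays biological replicates; p-values measure the spread between these 8.

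Alternatives were other scalings (75th percentile, median), normexp background with offset 50, the authors' table, other filters, the mean of probes, a replicate block, the methods' t-test and each array left out. Normexp used the median spot signal, since the files used here have no mean signal. Promoter sequences are from RefSeq; the array files name another mouse build, so no probe positions are given.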

Additional observations from a re-analysis of the deposited data

Results flagged for a closer look

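In 3 of 82 groups of 4 arrays checked (the members and gene lists on the arrays of each genotype), 1 array lay far from the other 3 by Dixon's test, where about 1 in 20 such groups would be set apart by chance. Yars, which was called lower, stood at 10.94 on KO array 4 and between 10.30 and 10.35 on the other KO arrays; without KO array 4 it was still called. Wars2 stood at 7.85 on KO array 4, with the other KO arrays between 8.25 and 8.26, and it was also lowest on WT array 4, at 7.87. Lars2 stood at 17.17 on WT array 1 and between 17.70 and 17.79 on the other WT arrays.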

How the results depend on the processing

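Direction held for the 16 called synthetase genes in every alternative, and the median of all genes stayed within 0.1 log2 units of 0. With 1 array left out in turn, the number of members lower ran from 4 (without KO array 3, where 1.76% of all genes were lower) to 19, of cytosolic members from 4 to 13, of mitochondrial members from 0 to 7, of other charging genes from 1 to 10, and of ATF4 pathway genes from 2 to 8, with 0 to 1 of the last higher. Outside these, mitochondrial members lower numbered 3 with normexp background, 3 with the dimmest passing probe of each gene and 1 without KO array 4 and WT array 2. Of all genes 8.38%, 8.28% and 3.3% were lower in these runs, in the same order. ATF4 pathway genes lower numbered 4 with no filter on dim probes (5.23% of all genes), 4 by the methods' t-test (5.63%) and 4 without those 2 arrays (3.3%). With the dimmest probe 1 was higher (6.2% of all genes). Members lower numbered 9 without those 2 arrays. The dimmest probe, the 2 arrays left out together and leaving out Lars2 were chosen after seeing the data. The replicate block gave 17 members lower (10.8% of all genes): Tars2 (limma adjusted p = 0.0405) and Iars (0.0358) were gained and Kars (0.0618) was lost, and no other call of a member changed. By the methods' t-test 12 members were lower (5.63% of all genes), without Yars, Nars2, Mars1, Kars and Cars2 and with Vars2 added (0.0477). Calls were also lost for Aars2 (0.0530) and Cars2 (0.0537) with normexp background, for Mars1, Kars and Cars2 with no filter on dim probes (0.0539 to 0.0561), for Cars2 with median scaling (0.0513) or the mean of probes (0.0617), and for Nars2, Mars1 and Cars2 with the dimmest probe (0.0589 to 0.678). Calls were gained for Qars with 75th percentile scaling (-0.52, 0.0268), median scaling (-0.52, 0.0353), normexp background (0.0494), the mean of probes (0.0272) and the dimmest probe (0.0218), for Wars with the mean of probes (0.0258) and the dimmest probe (0.0142), for Tars2 with the mean of probes (0.0466) and for Dars with normexp background (0.0499). The cause of these changes was not tested. The number of arrays limits which small changes can be called.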
